A study of Homo sapiens with 49 samples.

Results

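Human BE(2)-C neuroblastoma cells carrying a tetracycline-inducible short hairpin RNA against TWIST1 were compared after 48 h in doxycycline and without doxycycline, with 3 RNA-seq libraries on each side. The comparison takes every gene whose mean was at least 1 FPKM over the 18 hairpin libraries of the unnormalised table. This gave 11433 of 23621 genes, and 6 of the 49 samples of the series are compared. Both groups are the same engineered line grown in tetracycline-free serum; the treated group received doxycycline at 0.5 µg/ml, which turns the hairpin on. The line is a model of MYCN-amplified neuroblastoma, and whether it is 1 clone, what the hairpin sequence is and what the vector holds are not stated in the labels. No BE(2)-C group with doxycycline and without the hairpin was analysed here, so the hairpin, the loss of its target and the drug cannot be told apart. The libraries are told apart by the numbers 0, 1 and 2 of the deposited columns. Nothing in the labels says that they were separate cultures, so each p-value measures the spread between these libraries, which may be technical.

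TWIST1 is a basic helix-loop-helix transcription factor. It binds E-box sequences as a dimer, mostly with the ubiquitous E proteins encoded by TCF3, TCF4 and TCF12, while ID proteins take E proteins away from such dimers. It is best known for mesoderm and neural crest development and for epithelial-mesenchymal transition, and in neuroblastoma it is found with MYCN at the enhancers of MYCN-amplified cells. A short hairpin RNA is cut by the cell into a small RNA that guides Argonaute to a target transcript, with the seed near its 5′ end as the part that pairs first.

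Values are given on 2 scales, as the authors deposited them. FPKM are fragment numbers scaled to transcript length and library size. The unnormalised FPKM read each RNA relative to the others in its library, and the rescaled FPKM were set to the ERCC spike-in RNAs, synthetic transcripts added to the cell lysate. Log2 changes are on the log2(FPKM + 1) scale, where those of weakly expressed genes come out too small, and have the standard error (SE) of the limma fit; "adjusted p" is limma's p with Benjamini-Hochberg adjustment over all 11433 genes, and a gene rose or fell where it was under 0.05. FPKM carry no read number, so the depth and its counting error are unknown.

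The targeted gene was lower in every treated library. TWIST1 stood at 57.9, 74.6 and 62.1 unnormalised FPKM in the 3 control libraries and at 18.9, 17.7 and 17.7 after 48 h. The groups did not overlap, and the treated libraries lay within 1.2 FPKM of each other. The mean went from 64.9 ± 8.69 to 18.1 ± 0.684 unnormalised FPKM (SD, n = 3 each), which is 27.9% of the control mean (log2 change -1.78, SE 0.107, adjusted p = 9.3e-09). On the rescaled scale TWIST1 was at 91.8, 70.3 and 82.0 FPKM without doxycycline and at 7.65, 11.2 and 4.60 after 48 h, again without overlap (log2 change -3.29, SE 0.339, adjusted p = 4.12e-08). Counting TWIST1 itself, 20 genes (0.175% of those tested) fell by at least as much on the unnormalised scale and 22 (0.192%) on the rescaled scale.

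The typical gene was lower per spike-in at 48 h. The spike-ins made up 2.63%, 3.46% and 3.46% of the summed unnormalised FPKM of the control libraries and 10.4%, 6.95% and 15.5% of those at 48 h. The median gene was at 19.7, 10.8 and 16.9 rescaled FPKM without doxycycline and at 5.05, 7.86 and 3.26 after 48 h. All 3 treated libraries lay below all 3 controls. The library medians of log2(rescaled FPKM + 1) were 4.03 ± 0.417 and 2.61 ± 0.529 (SD, n = 3 each). The second SD is the largest of the 6 groups of the time course. The difference was -1.42, or 2.68-fold lower in FPKM + 1. An exact two-sided permutation test over the 6 library medians gave p = 0.1, the smallest value that 3 against 3 can give. The median of the gene changes was -1.36 on the rescaled scale and 0.021 on the unnormalised one. With 0.1 FPKM added in place of 1 FPKM, the median on the rescaled scale was -1.53. At 3, 6, 12 and 24 h the median change on the rescaled scale, against the same control libraries, was -0.43, 0.22, 0.19 and -0.22. Cell numbers were counted before lysis, per the labels' protocols, but no count is given, so fewer cells in a lysate and less RNA per cell cannot be told apart in these data.

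**Figure D1:**
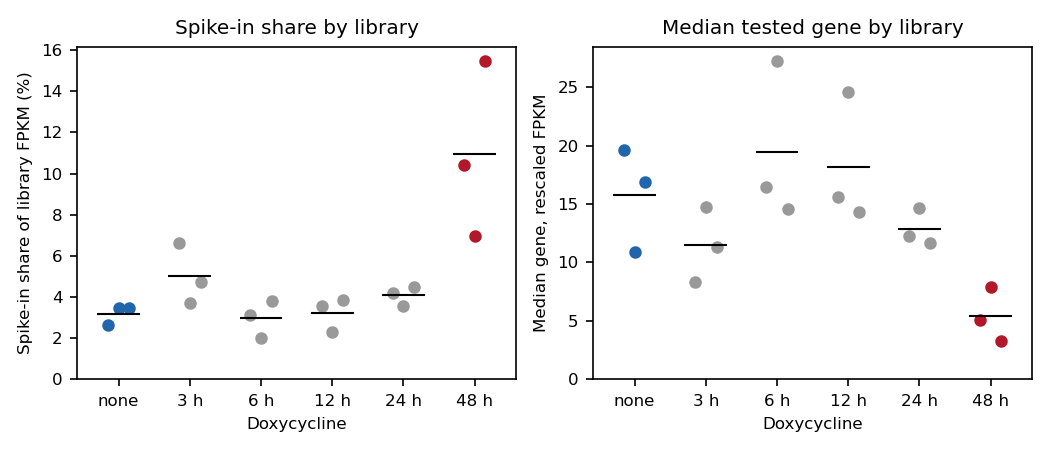
Left, the share of each library's summed unnormalised FPKM that belongs to spike-ins (%); right, the rescaled FPKM of the median tested gene, by time in doxycycline. Each point is 1 library and each bar a group mean. The 48 h libraries (red) have spike-in shares of 6.95% to 15.5% against 2.63% to 3.46% in the controls (blue), and median genes of 3.26 to 7.86 FPKM against 10.8 to 19.7.

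Because the typical gene moved on one scale and not on the other, the scale decides the count of changed genes. On the rescaled scale 10667 genes fell (93.3% of those tested) and 15 rose (0.131%). The rescaling acts on all genes of a library together, so these calls are not independent of each other. The shift of the library medians that they share had p = 0.1 in the exact permutation test above. Those 15 are all small or uncharacterised RNAs, and 12 of them are listed at 0 in all 3 unnormalised control libraries, where the rescaled table holds small values in place of the zeros. On that scale 8996 genes (78.7%) had all 3 treated libraries below every control and 3 (0.0262%) had all 3 above. On the unnormalised scale 2434 genes fell (21.3%) and 2067 rose (18.1%), with 2586 (22.6%) and 2256 (19.7%) not overlapping. All 2434 that fell there also fell on the rescaled scale. Another 1675 genes (14.7%) fell per spike-in and rose relative to other RNAs. When the rescaled log2 values were centred on each library's median, 2500 genes were lower (21.9%) and 3496 higher (30.6%). There 1 FPKM had been added before centring, which weighs more on the smaller rescaled values at 48 h. Centred changes can therefore come out lower for abundant genes and higher for weakly expressed ones. HSPD1, at a mean of 781 unnormalised FPKM in the controls, was at 0.36 unnormalised and 0.086 centred. CTH, at a mean of 2.21 FPKM, was at 0.48 and 0.87. The part of this in the centred counts of the lists below was not tested. Below, rises and falls are relative to other RNAs in the library (unnormalised) unless the rescaled scale is named. A rise on that scale can thus be a fall per spike-in, as it was for 1675 of the 2067 genes that rose.

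**Figure D2:**
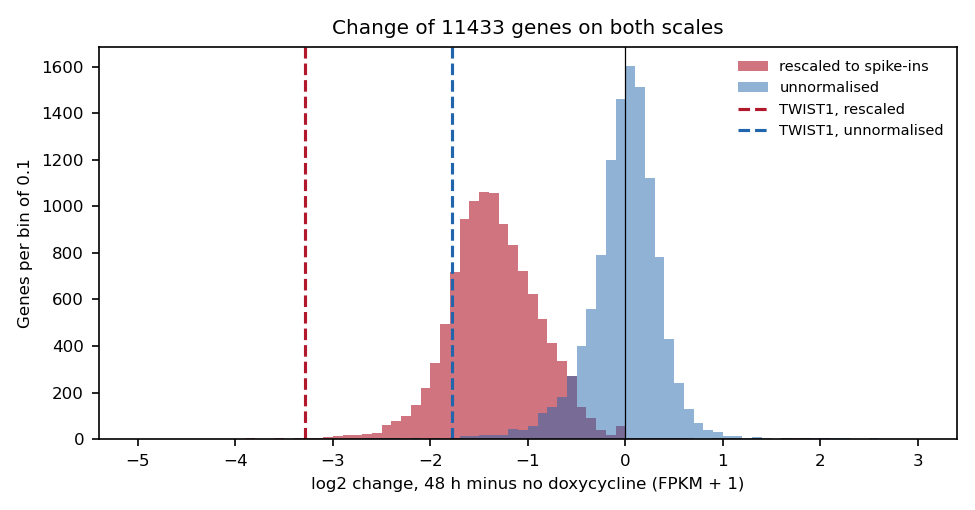
Log2 change of the 11433 tested genes at 48 h (x axis, FPKM + 1) as the number of genes per bin of 0.1 (y axis), for rescaled (red) and unnormalised (blue) values. The rescaled changes centre on -1.36 and the unnormalised on 0.021; dashed lines mark TWIST1 at -3.29 and -1.78.

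One control library stands apart on the unnormalised scale. Control library 1 correlated with its mates across genes at r = 0.951 and 0.958, against 0.981 between the other controls (a description over genes, which are not replicates). Its short transcripts were higher and its long ones lower: in the shortest of 4 equal groups of matched transcripts (1969 bases or less) its median was 0.43 log2 units above the mean of the other two controls, and in the longest group (4809 bases or more) it was 0.49 below (-0.49). By GC content the same median went from -0.39 in the group with least GC to 0.36 in the group with most. Without this library 3235 genes fell (28.3%) and 3169 rose (27.7%) on the unnormalised scale. Of the genes called with all libraries, 2274 of those lower and 1895 of those higher kept their call. This comparison was chosen after the data were seen; the counts without control library 1 are given below for the lists of pathway and identity genes.

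The cells kept the markers of adrenergic neuroblastoma in all 6 libraries. The 11 markers checked, among them PHOX2A, HAND2, GATA3, ISL1, TH, DBH, CHGA, CHGB and MYCN, had means of 1 FPKM or more, and their sums were 3424 to 4353 unnormalised FPKM in the controls and 3565 to 3650 at 48 h. Of 8 mesenchymal or fibroblast markers only THY1 reached a mean of 1 FPKM, of 4 Schwann or glial markers only S100B, and of 5 epithelial markers only KRT19. None of the 4 blood markers and none of the 3 endothelial ones reached a mean of 1 FPKM over the 6 libraries. SOX10, which defines Schwann cells, was at 0 in all 6 libraries.

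The largest fall that the naming rule gave, larger than that of TWIST1, was that of PIK3R2, which encodes a regulatory subunit of phosphoinositide 3-kinase. PIK3R2 stood at 71.2, 73.5 and 73.0 unnormalised FPKM without doxycycline and at 7.81, 7.30 and 7.47 at 48 h. The groups were far apart, with 10.4% of the control mean left (log2 change -3.11, SE 0.05, adjusted p = 4.82e-15). HNRNPUL1, an RNA-binding protein of heterogeneous nuclear ribonucleoproteins, went from 123, 103 and 123 to 14.5, 14.3 and 15 unnormalised FPKM (-2.90, adjusted p = 4.86e-13). STRN4, a striatin scaffold of phosphatase complexes, went from 46.3, 54.2 and 48.1 to 7.0, 5.76 and 8.21 (-2.67, adjusted p = 4.45e-11). OAF, a secreted protein, went from 27.6, 37.6 and 29.7 to 4.61, 3.67 and 4.15 (-2.66, adjusted p = 1.01e-10). In each of these 4 genes every treated library lay below 20% of the lowest control.

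A synaptic scaffold, a kinase and a calmodulin-binding protein were also among the 12. PPP1R9B, the synaptic scaffold spinophilin, stood at 52.2, 55.3 and 51.7 unnormalised FPKM without doxycycline and at 8.29, 8.85 and 9.79 at 48 h (-2.44, adjusted p = 1.1e-12). PRKCZ, an atypical protein kinase C, went from 9.54, 10.0 and 8.32 to 1.16, 0.846 and 1.03 unnormalised FPKM (-2.36, adjusted p = 8.05e-11). The calmodulin-binding neuronal protein NRGN went from 33.9, 51.1 and 34.9 to 9.43, 7.51 and 7.50 (-2.14, adjusted p = 4.53e-09). The groups of these 3 genes did not overlap. SEC13, a subunit of the COPII coat and of the nuclear pore, went from 69.8, 90.5 and 68.0 to 17.1, 15.8 and 15.8 unnormalised FPKM (-2.15, adjusted p = 6.15e-11). DPM3, which anchors the dolichol-phosphate mannose synthase, went from 49.7, 77.3 and 38.4 to 9.21, 14.1 and 11.5 (-2.11, adjusted p = 1.53e-06), with the largest SE of the 12 on the log2 scale (0.208). EMILIN1, a glycoprotein of elastic fibres, went from 116, 151 and 113 to 31.3, 31.0 and 32.5 (-1.96, adjusted p = 1.97e-10). The phosphatase regulator PPP1R16B (-2.02, adjusted p = 2.13e-09) and ERICH1 (-1.93, adjusted p = 2.61e-10) complete the 12 largest falls that the naming rule gave on the unnormalised scale. On the rescaled scale the rule gave GUK1, the guanylate kinase, and HDGF, a growth factor, in place of PRKCZ and ERICH1. GUK1 fell by 3.4 (adjusted p = 5.49e-08) and HDGF fell by 3.37 (adjusted p = 5.95e-08) there, and they fell by 1.76 and 1.73 on the unnormalised scale.

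These falls were already under way in the earlier groups, which are set against the same controls. TWIST1 changed by -0.47, -0.93, -1.38, -1.64 and -1.78 at 3, 6, 12, 24 and 48 h (unnormalised log2 changes), and the 3 h value did not pass (adjusted p = 0.679). OAF was the one of the 12 that had fallen by 3 h (-0.81, adjusted p = 0.0124), and it reached -1.92 by 6 h. PIK3R2 was at -0.049, -0.76, -1.78, -2.76 and -3.11 over the same times, and PPP1R16B was at 0.14, -0.061, -0.61, -1.61 and -2.02. At 3, 6, 12 and 24 h, 2, 54, 381 and 1551 genes were lower and 0, 1, 86 and 1092 were higher on the unnormalised scale. Tested directly against 24 h, 210 genes (1.84%) were lower and 154 (1.35%) higher at 48 h on that scale, while 10551 were lower on the rescaled one. With each library left out in turn the unnormalised counts ran from 60 to 1233 lower and from 47 to 981 higher; both upper ends are without control library 1, and without 48 h library 0, 1 or 2 the counts were 60, 74 and 102 lower and 47, 50 and 61 higher. TWIST1 did not differ between 24 and 48 h beyond the spread on the unnormalised scale (-0.14, adjusted p = 0.634) and was lower at 48 h on the rescaled scale (-1.39, adjusted p = 0.00294).

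**Figure D3:**
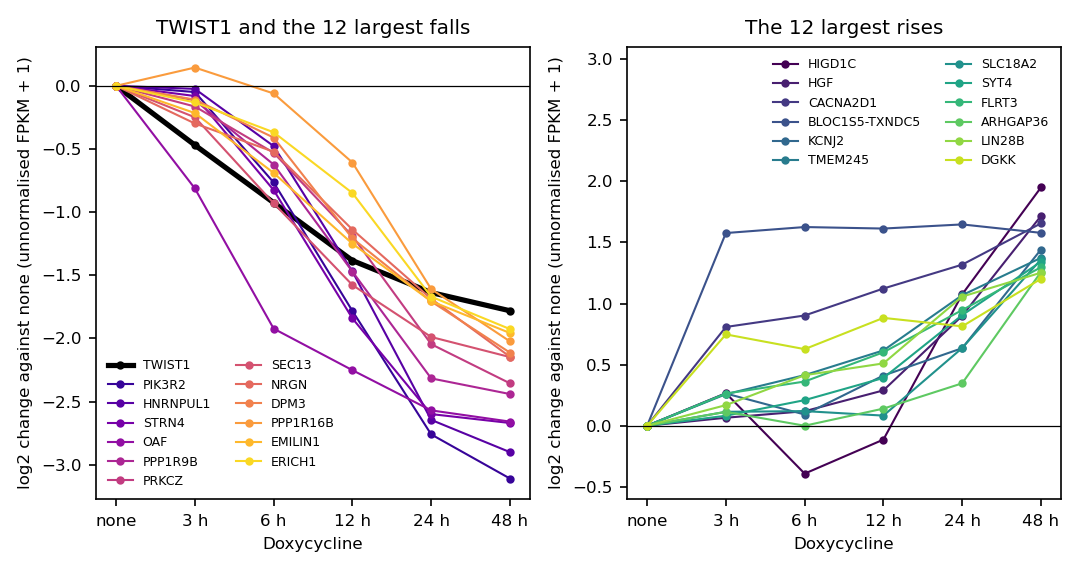
Log2 change of unnormalised FPKM + 1 against the libraries without doxycycline (y axis) by time in doxycycline (x axis). Left, TWIST1 (black) and the 12 largest falls at 48 h; right, the 12 largest rises. Each point is a difference of group means of 3 libraries. At 48 h the falls lie between -3.11 and -1.93 and the rises between 1.20 and 1.95; OAF is the lowest line at 3 h.

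The transcripts that fell most share short sequences, which are shown here because they were found in most of the largest falls. Of 11433 genes, 10173 (89.0%) matched by symbol to a coding transcript of GENCODE 29, and all 16384 heptamers were looked for on the transcript strand, separately in coding sequences and in 3′ UTRs. Heptamers held by at least 20 genes were ranked by the mean residual of their carriers times the square root of the number of carriers, lowest first, after a regression of the log2 changes on length and GC content. In 3′ UTRs the overlapping CGAGGAA (254 genes) and ACGAGGA (243 genes) took ranks 1 and 2 at each of 6, 12, 24 and 48 h; at 3 h they ranked 74 and 532. Their carriers lay on average 0.25 log2 units below the regression at 48 h (-0.25 for both). In coding sequences ACGAGGA (1603 genes) took rank 1 at each of the same 4 times and rank 381 at 3 h, with a mean of -0.14 at 48 h. A second pair, TGCGGAC (138 genes, -0.28) and GCGGACA (150 genes, -0.27), held ranks 3 and 4 in 3′ UTRs at 24 and 48 h. Without control library 1 the same 4 heptamers led in 3′ UTRs and ACGAGGA led in coding sequences.

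The coding sequence of TWIST1 holds ACGAGGA and, 5 bases before it, GTCCGCA, which is the reverse complement of TGCGGAC. The stretch lies in exon 1 at chr7:19117006-19117029 on the minus strand (GRCh38, GENCODE 29, whereas the deposited values were made on hg19). Both are in capitals in the TWIST1 line. In the other lines, which show sites in the largest falls and in the protease gene MMP14, capitals mark ACGAGGA or CGAGGAA, with both where they overlap as ACGAGGAA; all are written 5′ to 3′ on the transcript strand.
TWIST1: ggaGTCCGCAgtcttACGAGGAgc
PIK3R2, coding exon 15 at chr19:18168755-18168778 (+): atctcccgcaccACGAGGAAcgca
HNRNPUL1, coding exon 12 at chr19:41302749-41302772 (+): tgaggcagtacaACGAGGAAggcc
STRN4, coding exon 7 at chr19:46728732-46728755 (-): ccgaaatggaagACGAGGAtgagg
OAF, 3′ UTR at chr11:120229847-120229870 (+): ggagcatgaagtACGAGGAAaact
PPP1R9B, coding exon 2 at chr17:50145215-50145238 (-): gcacttactccaACGAGGAttacg
PRKCZ, coding exon 4 at chr1:2146058-2146081 (+): tagacgacaagaACGAGGAcgccg
SEC13, 3′ UTR at chr3:10301043-10301066 (-): agcactcatgttACGAGGAAgaaa
EMILIN1, 3′ UTR at chr2:27086356-27086379 (+): catactaaacgatCGAGGAAtaaa
HDGF, coding exon 3 at chr1:156745103-156745126 (-): acctcttcccttACGAGGAAtcca
MMP14, 3′ UTR at chr14:22847170-22847193 (+): gaaggcacacaaACGAGGAAtgag
Of the 12 largest falls in transcripts that matched, 10 (83.3%) hold ACGAGGA or CGAGGAA somewhere in the transcript, and 22 of the 25 largest (88.0%), against 26.1% of all matched genes (2653 of 10173). The 8-base ACGAGGAA in a coding sequence or 3′ UTR was held by 8 of those 25 (32.0%) and by 3.59% of all. The 25 largest rises held either heptamer in 7 cases (28.0%). These shares are no separate support, because the heptamers were picked by the same log2 changes that order the genes. Some transcripts hold several copies: HNRNPUL1 has 4 ACGAGGA in its coding sequence, PPP1R9B has 6 and STRN4 has 3. NRGN holds neither sequence and DPM3 holds neither of these 2 heptamers, but its 3′ UTR has TGCGGACA.

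DPM3 and other genes with TGCGGACA in the 3′ UTR are shown because the first 7 bases of that sequence are complementary to the other marked part of the TWIST1 stretch; capitals mark TGCGGACA, and coordinates are GRCh38.
DPM3, chr1:155139931-155139954 (-): accccattcctgTGCGGACAgccc
FAM155A, chr13:107169403-107169426 (-): aaacaaagggatTGCGGACAcata
TP53INP2, chr20:34711010-34711033 (+): gcctattggagaTGCGGACAggac
GLIS2, chr16:4337521-4337544 (+): ctgagcccatccTGCGGACAgttg
FAM155A, part of the sodium leak channel complex, went from a mean of 12.9 to 4.12 unnormalised FPKM (-1.43, adjusted p = 1.52e-09). TP53INP2, a regulator of autophagy, changed by -1.05 (adjusted p = 1.14e-08), and the zinc finger factor GLIS2 changed by -0.90 (adjusted p = 8.18e-08).

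The size of the change differed with the number and place of copies, as a description of classes that the ranking itself picked from this contrast. The 7520 genes with neither ACGAGGA nor CGAGGAA had a median log2 change of 0.055 at 48 h, with 17.1% lower and 21.2% higher. Genes with 1, 2 and 3 or more ACGAGGA in the coding sequence (1280, 230 and 93 genes) had medians of -0.097, -0.26 and -0.45, with 38.1%, 53.9% and 66.7% lower. The 84 genes with ACGAGGAA in the 3′ UTR had a median of -0.28 with 50% lower and 5.95% higher. The 46 genes with TGCGGACA in the 3′ UTR had a median of -0.39 with 69.6% lower. Of those 46, the 31 without either of the other heptamers had a median of -0.40. Without control library 1 these medians were 0.038, then -0.14, -0.28 and -0.55, then -0.35, -0.37 and -0.36. Classes with more coding copies are longer and richer in GC (median length 3476, 4373 and 5206 bases; median GC 53.9%, 57.7% and 58.7%), so copy number, length and GC move together. SHEP-21N is another neuroblastoma line, in which doxycycline, here at a lower dose, shuts MYCN off and whose labels name no hairpin. It has fewer libraries at 0 h than at 24 h and smaller classes (6865 genes without either heptamer, 72 with ACGAGGAA in the 3′ UTR). After 24 h its unnormalised medians were -0.059 without either heptamer and -0.14, -0.22 and -0.27 for 1, 2 and 3 or more coding copies. They were 0.017 for ACGAGGAA in the 3′ UTR and -0.13 for TGCGGACA in the 3′ UTR. The median of all matched genes in SHEP-21N was -0.068. In BE(2)-C at 24 h the medians of these 6 classes were, in the same order, 0.045, -0.080, -0.19, -0.37, -0.27 and -0.29. The labels give no hairpin sequence, and the part of these matches in the falls was not tested.

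**Figure D4:**
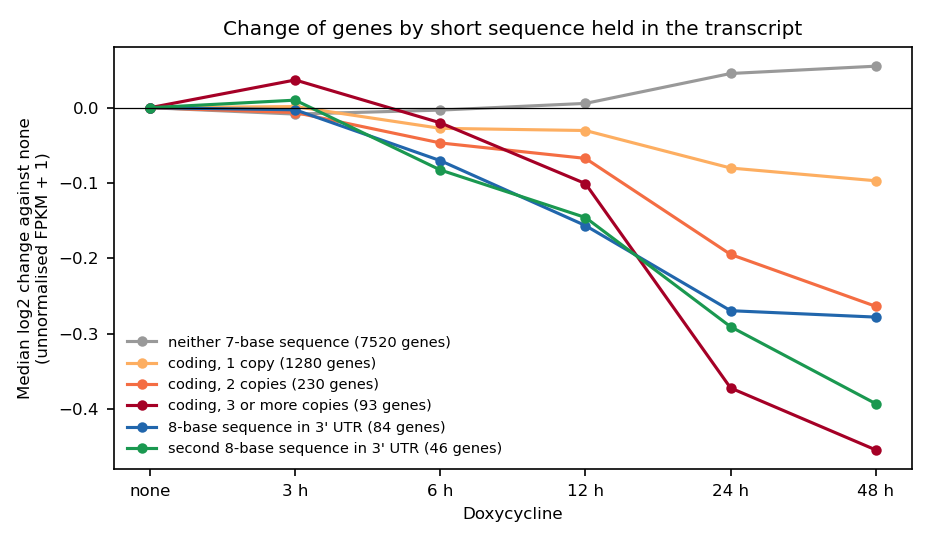
Median log2 change of unnormalised FPKM + 1 against no doxycycline (y axis) by time (x axis) for classes of genes. Grey, neither ACGAGGA nor CGAGGAA in the transcript; orange to dark red, 1, 2 and 3 or more ACGAGGA in the coding sequence; blue, ACGAGGAA in the 3′ UTR; green, TGCGGACA in the 3′ UTR. The classes lie within 0.04 of 0 at 3 h and spread from 0.055 (grey) to -0.45 (dark red) at 48 h.

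The 12 largest rises on the unnormalised scale included a growth factor, channels and vesicle proteins. HIGD1C, a hypoxia-inducible domain protein, stood at 4.63, 8.82 and 5.43 unnormalised FPKM without doxycycline and at 21.1, 28.3 and 30.7 at 48 h (1.95, adjusted p = 1.05e-04). HGF, the ligand of the MET receptor, went from 5.80, 3.35 and 5.86 to 18.7, 19.2 and 17.2 (1.72, adjusted p = 8.98e-08). SLC18A2, the vesicular monoamine transporter, went from 4.34, 3.02 and 4.78 to 11.2, 12.1 and 12.2 (1.36, adjusted p = 1.7e-07). In all 3 genes the lowest treated library was more than 2 times the highest control. The inward rectifier channel KCNJ2 (1.44, adjusted p = 2.76e-06), the vesicle protein SYT4 (1.34, adjusted p = 6.39e-07), the adhesion protein FLRT3 (1.30, adjusted p = 4.79e-08) and ARHGAP36, an inhibitor of protein kinase A (1.26, adjusted p = 2.86e-08), also rose. So did the membrane protein TMEM245 (1.37), LIN28B, which blocks let-7 maturation (1.25), and the diacylglycerol kinase DGKK (1.20).

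Control library 1 carries much of 2 of these rises. CACNA2D1, an auxiliary subunit of calcium channels, was at 19.1, 2.89 and 18.2 unnormalised FPKM in the controls and at 36.4, 34.9 and 34.0 at 48 h (1.66, adjusted p = 0.0052); without that library the change was 0.88 (adjusted p = 1.23e-07). DGKK was at 7.98, 1.77 and 8.53 in the controls, and its change without library 1 was 0.62 (adjusted p = 1.04e-04). BLOC1S5-TXNDC5 (1.58, adjusted p = 0.00337) is a readthrough transcript that shares exons with TXNDC5, so its value is uncertain; TXNDC5 itself changed by -0.12 (adjusted p = 0.0301). Per spike-in none of the 12 passed: their changes lay between -0.32 (LIN28B) and 0.47 (HIGD1C), with adjusted p of 0.222 to 0.979. Without control library 1, CACNA2D1 (-0.89, adjusted p = 0.0296) and DGKK (-0.99, adjusted p = 0.00719) fell on that scale and the other 10 did not pass. SLC18A2 was at 6.76, 2.87 and 6.51 rescaled FPKM in the controls and at 4.70, 7.98 and 3.33 at 48 h, which overlap. No gene met the rule for rises on that scale, while 8399 met the rule for falls; in limma at an unadjusted p under 0.05 the only higher genes were 15 small or uncharacterised RNAs.

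Among the dimer partners and relatives of TWIST1 the E protein gene TCF3 fell and TCF4 and TCF12 did not pass. The list of TWIST, E protein and ID genes has 10 tested members; all 10 fell on the rescaled scale, and 5 fell and none rose on the unnormalised one, where 6 fell and 1 rose without control library 1. Over all genes 93.3% fell on the rescaled scale. On the unnormalised scale 21.3% fell and 18.1% rose, and 28.3% and 27.7% did so without control library 1. With centred values 21.9% of all genes were lower and 30.6% higher. The counts of each list below stand beside the shares of the same setting. TCF3 was at 48.0, 53 and 49.3 unnormalised FPKM without doxycycline and at 30.1, 29.8 and 30.5 at 48 h (-0.72, adjusted p = 2.1e-08). TCF4 (0.065, adjusted p = 0.784) and TCF12 (0.30, adjusted p = 0.123) did not pass; both were low in control library 1 (23.9 and 42.1 FPKM against 45.6 to 46.3 and 75 to 75.7 in its mates), and without it TCF4 was lower (-0.24, adjusted p = 0.00279) and TCF12 was at 0.026. The transcript of TCF3 holds 1 ACGAGGA in its coding sequence and those of TCF4 and TCF12 hold none. Among genes named below, MYBL2, STMN2 and HMGCS1 fell and hold neither ACGAGGA nor CGAGGAA. DBH and SLC2A1 rose and each hold 1 ACGAGGA in the coding sequence. HAND2, a partner in the adrenergic circuit, went from 209, 243 and 222 to 150, 145 and 159 unnormalised FPKM (-0.56, adjusted p = 9.26e-07). ID1, an inhibitor of E protein dimers, went from 77.0, 110 and 72.6 to 55.3, 50.2 and 54.6 (-0.67, adjusted p = 6.76e-04). The weakly expressed repressor BHLHE40 went from 1.25 to 0.790 on average (-0.33, adjusted p = 0.0117). ID2 (-0.029), ID3 (0.014) and HAND1 (-0.018) did not pass.

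MYCN, the amplified driver of this line, was slightly lower relative to other RNAs. It stood at 889, 902 and 910 unnormalised FPKM without doxycycline and at 796, 772 and 785 at 48 h (-0.20, adjusted p = 0.00275). Of 19 tested genes of the MYC and MAX network 9 fell and none rose, with a median of -0.17; without control library 1, 11 fell. The zinc finger factor MAZ went from 363, 496 and 357 to 177, 179 and 177 unnormalised FPKM (-1.17, adjusted p = 1.46e-07) and has 1 ACGAGGA in its coding sequence. Per spike-in MYCN changed by -1.89 (adjusted p = 6.52e-05).

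The genes of the adrenergic and catecholamine programme split. Of 21 adrenergic identity factors 6 fell and 5 rose (median -0.026), near the shares of all genes; without control library 1, 7 fell and 6 rose. The homeobox factor MEIS2 (-0.67, adjusted p = 6.17e-07) and the Notch target HEY1 (-0.66, adjusted p = 8.68e-06) fell. Of 16 genes for catecholamine handling and secretory granules 9 rose and 4 fell, with a median of 0.16 against 0.021 for all genes; with centred values 6 were higher and 5 lower, and without control library 1, 10 were higher and 4 lower. DBH, which makes noradrenaline, went from 88.9, 110 and 89.4 to 188, 213 and 203 unnormalised FPKM (1.06, adjusted p = 1.87e-07). The noradrenaline transporter SLC6A2 went from 97.3, 101 and 99.7 to 167, 159 and 164 (0.71, adjusted p = 2.59e-09), and the granule protein CHGB went from 170, 188 and 167 to 284, 328 and 301 (0.79, adjusted p = 8.18e-07). In all 3 the treated libraries lay above every control. Per spike-in none of the 16 rose and 13 fell; DBH was at 141, 104 and 118 rescaled FPKM in the controls and at 73.8, 130 and 51.5 at 48 h, which overlap (-0.60, adjusted p = 0.127).

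Genes of neurites and of epithelial-mesenchymal transition fell more often than they rose. In the list of neurite and neuronal genes 14 of 30 fell and 6 rose (median -0.19), or 17 and 6 without control library 1. STMN2, a microtubule regulator of growth cones, went from 472, 497 and 449 to 189, 194 and 188 unnormalised FPKM (-1.31, adjusted p = 1.8e-11). The neuronal tubulin TUBB3 (-1.04) and the neurofilaments NEFL (-0.85) and NEFM (-0.61) fell too (adjusted p of 1.6e-06 or less). Of 17 tested genes of epithelial-mesenchymal transition 7 fell and none rose, and 11 fell without control library 1; with centred values 6 fell and 1 rose. The membrane protease MMP14 went from 6.30, 7.01 and 5.74 to 1.41, 1.19 and 1.37 unnormalised FPKM (-1.66, adjusted p = 3.19e-09), and SNAI1 (-0.61), TGFB1 (-0.42) and MMP2 (-0.37) were lower. Of 14 tested mesenchymal identity genes 9 fell, among them the actin-binding CALD1 (-0.93, adjusted p = 1.43e-05) and the collagen COL5A1 (-0.58), while FOSL2 (1.03, adjusted p = 2.59e-05) and IRF2 (0.42) were among 3 that rose; without control library 1, 8 fell and 3 rose. In BMP and TGF-beta signalling 5 of 22 fell and 4 rose; the pseudoreceptor BAMBI was at -0.73 (adjusted p = 1.65e-06) and SMAD1 at 0.71 (adjusted p = 3.55e-05). With centred values 3 of the 22 were lower and 11 higher, and without control library 1, 8 were lower and 4 higher. Among 14 Notch genes 2 fell and 4 rose, or 4 and 6 without that library.

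Mitosis genes fell more often than they rose. Of 38 tested, 21 fell and 2 rose, with a median of -0.28; without control library 1, 30 fell and 1 rose. MYBL2, which drives G2 and M phase genes, went from 123, 154 and 117 to 44.1, 43.7 and 46.4 unnormalised FPKM (-1.52, adjusted p = 1.06e-09). The phosphatase CDC25B (-0.81), the spindle protein NUSAP1 (-0.60) and FOXM1 (114, 114 and 116 to 76.2, 73.4 and 78.6 unnormalised FPKM, -0.59) fell as well, with adjusted p of 1.82e-07 or less. Of 40 DNA replication genes 15 fell and 4 rose (median -0.13), or 19 and 7 without control library 1: UHRF1 (-0.90, adjusted p = 2.2e-08), LIG1 (-0.70) and MCM3 (-0.61) fell, and the primase PRIM1 was at 0.38 (adjusted p = 3.63e-06). Of 20 G1 regulators and CDK inhibitors 4 fell and 3 rose, or 5 and 5 without that library; CKS1B went from 276, 404 and 266 to 160, 165 and 151 unnormalised FPKM (-0.96, adjusted p = 9.76e-06) and CDKN2D changed by -0.84. The 16 tested replication histones, most of which lack poly(A) tails and are therefore caught poorly by poly(A) selection, had 1 lower and 2 higher, or 1 and 6 without it.

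Splicing genes, and RNA polymerase II and elongation genes, fell more often than they rose. Of 40 splicing and hnRNP genes 18 fell and 1 rose (median -0.15), or 19 and 5 without control library 1. SRSF4 went from 31.2, 29.8 and 30.7 to 9.50, 10.5 and 10.3 unnormalised FPKM (-1.51, adjusted p = 5.26e-11), and its 3′ UTR holds CGAGGAA; SRSF2 (-0.39) and U2AF2 (-0.35) fell less. Of 43 RNA polymerase II and elongation genes 13 fell and 7 rose, or 16 and 8 without that library: SUPT5H, the DSIF subunit, was at -0.95 (adjusted p = 4.74e-08), the elongation factor ELL at -0.76 and the FACT subunit SUPT16H at -0.62. In ribosome biogenesis 9 of 40 fell and 7 rose, shares near those of all genes, and the balance turned to 10 lower and 13 higher without control library 1; UBTF, the RNA polymerase I factor whose coding sequence has 5 ACGAGGA, went from 44.6, 47.7 and 44.7 to 27.5, 26.3 and 28.2 unnormalised FPKM (-0.72, adjusted p = 7.43e-09); with centred values 13 of the 40 were lower and 2 higher. Cytosolic ribosomal protein genes did not fall on the unnormalised scale: 8 of 37 rose and none fell, with a median of 0.23. Without control library 1, in which these short transcripts were high, 34 of 37 rose and the median was 0.44. With centred rescaled values 3 were lower and none higher. The added 1 FPKM weighs on those values as said above, and the cause of this difference was not tested. RPL5 was at 798, 1057 and 754 unnormalised FPKM in the controls and at 1123, 1187 and 1205 at 48 h (0.45, adjusted p = 0.00149). Per spike-in all 37 fell, with a median of -1.48.

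In metabolism the sterol and fatty acid genes fell more often than they rose. Of 31 tested, 17 fell and 3 rose (median -0.21); without control library 1, 20 fell and 5 rose. The cholesterol synthesis enzymes HMGCS1 (61.9, 45.1 and 63.6 to 26.5, 28.3 and 25.2 unnormalised FPKM; -1.05, adjusted p = 8.2e-07), SQLE (-0.68), FDFT1 (-0.46) and LSS (-0.43) were lower. In glycolysis 6 of 22 fell and 5 rose, and the balance turned to 6 and 9 without control library 1: PFKP was at -1.14 (adjusted p = 1.29e-07), and the glucose transporter SLC2A1 went from 31.9, 32.7 and 29.8 to 58.2, 57.7 and 62.8 unnormalised FPKM (0.90, adjusted p = 2.38e-08). Of 39 nuclear-encoded genes of oxidative phosphorylation 4 fell and 2 rose, and 3 fell and 25 rose without control library 1. SDHC, a membrane subunit of succinate dehydrogenase, went from 53, 58.5 and 47.9 to 17.3, 18.7 and 18.8 (-1.49, adjusted p = 1.09e-10), and its 3′ UTR holds ACGAGGAA. Mitochondrial ribosomal protein genes had 2 lower and 7 higher of 33 (20 higher without that library), and nucleotide, polyamine and one-carbon genes had 3 lower and 10 higher of 33 (4 and 15 without it). With centred values these 3 lists had 12, 7 and 9 lower and none, 2 and 1 higher. The mitochondrially encoded genes were not analysed here.

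Stress and signalling lists showed members moving both ways. Of 23 immediate early genes 11 fell and 3 rose (median -0.23), or 10 and 4 without control library 1. With centred values 10 of the 23 were lower and 7 higher. KLF2 (-1.37, adjusted p = 1.19e-06), SPRED2 (-1.01) and ARC (-0.90) fell, and BTG2 was at 0.57. The integrated stress response had 6 lower and 11 higher of 30 (6 and 15 without that library), with PPP1R15A at -0.81 (adjusted p = 1.06e-06), SLC1A5 at -0.80 and CTH at 0.48. Endoplasmic reticulum chaperones had 3 lower and 9 higher of 23 (2 and 15 without it), with CALR at -0.66 and CANX at 0.58; with centred values 6 were lower and 5 higher. Of 24 heat shock genes 6 fell and 4 rose; HSPA1A and HSPA1B, near-identical copies whose reads cannot be assigned with certainty, were both at -0.80, and HSPD1 was at 0.36 (adjusted p = 1.82e-04). With centred values 10 of these 24 were lower and none higher, whereas without control library 1, 6 were lower and 10 higher. The p53 targets had 5 lower and 7 higher of 26 (PLK2 -0.61, SESN1 0.55), 3 and 15 with centred values, and 7 and 10 without control library 1. The BCL2 family and apoptosis genes had 4 lower and 3 higher of 21, and the balance turned to 4 and 7 without that library. Interferon-stimulated genes had 1 lower and 5 higher of 15 (none and 6 without it), and lysosome and autophagy genes had 6 and 8 of 36 (3 and 17 without it; BECN1 -0.70). Proteasome genes had 7 lower and none higher of 30, but 7 lower and 10 higher without control library 1. With centred values 19 of these 30 were lower and none higher.

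**Figure D5:**
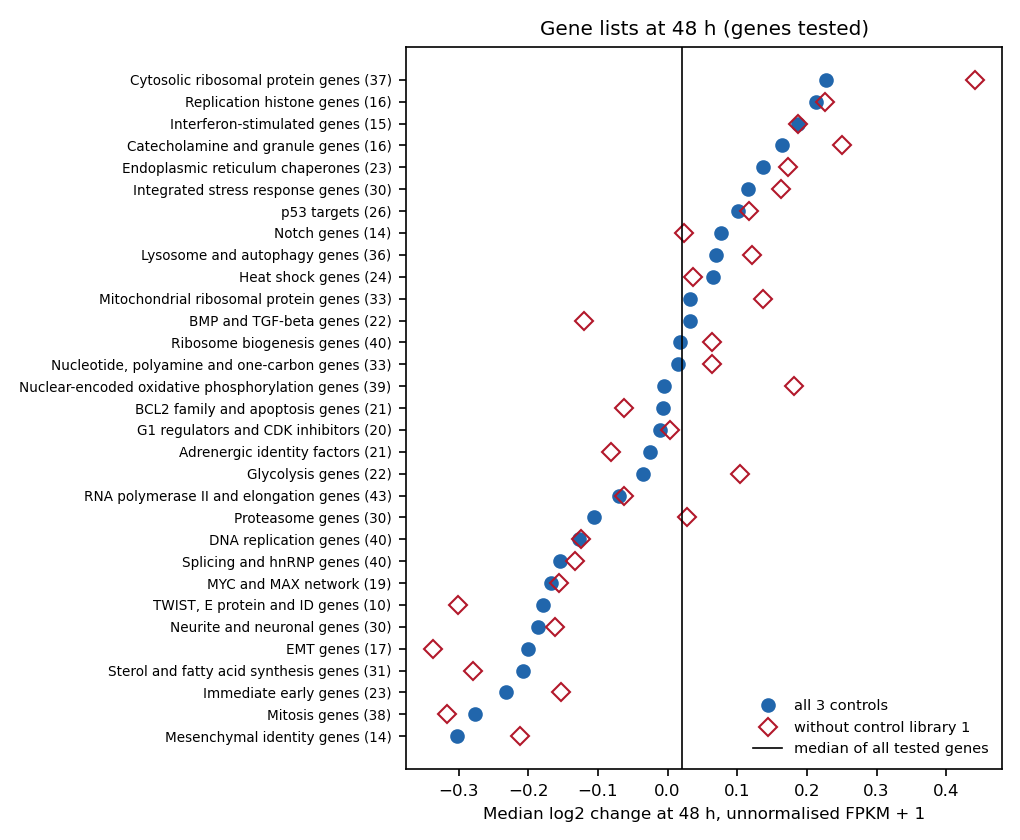
Median log2 change at 48 h on the unnormalised scale (x axis, FPKM + 1) of each list with at least 10 tested genes (number in brackets), with all 3 controls (blue) and without control library 1 (red diamonds). The line is the median of all tested genes, 0.021. Mesenchymal identity and mitosis genes lie lowest with all controls (-0.30 and -0.28), and cytosolic ribosomal protein genes highest (0.23, and 0.44 without library 1).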

How the data were processed

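RNA was measured in 18 libraries of BE(2)-C cells with the inducible hairpin, 6 of them in the groups compared. The authors deposited FPKM per gene in 2 tables, 1 unnormalised and 1 rescaled to spike-ins, with no account of the rescaling in the labels. Per the submitters' processing notes, HISAT, hg19 and Cufflinks 2.0.0 were used. Per the labels' protocols, spike-ins went in at lysis, poly(A) RNA was selected and libraries were stranded.

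Genes with a mean of 1 FPKM or more over the 18 libraries were fitted as log2(FPKM + 1) with 1 mean per group in limma 3.58.1 (R 4.3.3) with an intensity trend, on each table; all 18 libraries set the spread. The fit was tested on simulated unnormalised values with noise drawn separately for each gene and library. That test does not cover the rescaled scale or deviations shared by many genes of a library, such as those of control library 1. Transcripts came from GENCODE 29 (Python 3.11.15, numpy 2.4.6, pandas 2.3.3; figures matplotlib 3.10.9). Named genes were TWIST1 and its list, the 12 largest rises and 12 largest falls per scale among called genes whose libraries do not overlap, small and uncharacterised RNAs left out, and, of each list, the members ranking in the first 4 by adjusted p. Genes with TGCGGACA, and TXNDC5, were named after their values were seen. A few genes that the rule names are left out here. The members and lists were chosen with earlier results of these data known. Other BE(2)-C samples were not analysed here. Alternatives included another pseudocount, other filters, only 6 libraries, a replicate block and each library left out.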

Additional observations from a re-analysis of the deposited data

Results flagged for a closer look

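Some named genes differed between 24 and 48 h of doxycycline in limma's test of that difference (adjusted over all tested genes, 3 libraries a group), given here as 48 h minus 24 h in log2 units on the unnormalised scale. HAND2 was at -0.21 (adjusted p = 0.0478), PIK3R2 at -0.35 (adjusted p = 0.00231) and PPP1R16B at -0.41 (adjusted p = 0.0478). HGF was at 0.82 (adjusted p = 0.00444), KCNJ2 at 0.81 (adjusted p = 0.0104), SLC18A2 at 0.73 (adjusted p = 0.00303) and ARHGAP36 at 0.91 (adjusted p = 6.49e-05). On the rescaled scale TWIST1 was at -1.39 (adjusted p = 0.00294), when 10551 genes were lower at 48 h than at 24 h.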

How the results depend on the processing

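The median change of all genes and the counts depend on the scale. The median was -1.36 on the rescaled scale, 0.021 with the unnormalised table and 0.059 with the rescaled table centred. The 10667 genes lower on the rescaled scale became 2434 unnormalised and 2500 centred, and the 15 higher became 2067 and 3496; the 15 were 4 with no filter, 23 with a mean of 5 FPKM or more and 56 with only the 6 libraries. With only those 6 libraries, which leaves fewer degrees of freedom, 1099 genes were lower and 584 higher on the unnormalised scale. There limma's adjusted p of TWIST1 was 0.00134, against 9.3e-09 with all 18 libraries. Against 24 h, 94 genes were higher with the filter at 5 FPKM. Leaving out each library in turn gave 9166 to 10970 lower and 12 to 27 higher (rescaled), 2078 to 3235 lower and 1619 to 3169 higher (unnormalised), and, for 48 against 24 h, 60 to 1233 lower and 47 to 981 higher; the upper ends of the last 4 ranges are without control library 1. The median change ran from -1.63 to -1.10. TWIST1 ran from -3.56 to -3.00 (rescaled) and from -1.86 to -1.68 (unnormalised), called each time.

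Directions turned for TCF4 (0.065 unnormalised against a fall rescaled), TCF12 (0.30 unnormalised, 0.093 centred), ID3 (0.014 unnormalised) and BHLHE40 (0.57 centred). With each library left out in turn, unnormalised changes also turned for TCF4 (-0.24 to 0.22), ID2 (-0.063 to 0.020), ID3 (-0.074 to 0.17) and HAND1 (-0.074 to 0.077). The cause was not tested. Same-numbered libraries of the groups compared correlated at -0.018 to 0.064 (rescaled) and -0.014 to 0.049 (unnormalised) in their deviations from group means. No pairing by number was seen there, but so few libraries cannot exclude one. With a replicate block 10792 genes were lower and 11 higher (rescaled), 2419 and 2048 (unnormalised), and 174 and 134 for 48 against 24 h.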
